A study of Mus musculus with 6 samples.

Results

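The autosomal transcriptome of muscle stem cells (MuSCs) from Sirt6mKO/mdx mice was compared with that of MuSCs from control mice, with 2 libraries per group. The table held 22706 genes, of which 21810 were autosomal. Of these, 15382 had a mean normalized read count of at least 5 over the 6 libraries of the series and were tested. Control mice were wild type. Sirt6mKO/mdx mice carried the mdx mutation of dystrophin and a deletion of Sirt6 (exons 4 to 6, floxed) made by a constitutive Cre under the Pax7 promoter, so that the deletion reaches the whole skeletal muscle lineage and not MuSCs alone. The labels give C57BL/6 as the strain of all groups. The study's methods give adult male mice and trace the mdx allele to C57BL/10ScSn-Dmdmdx/J, with more than 1 age range given for the mice of these groups. MuSCs were sorted straight from muscle as cells negative for Sca1, CD45 and CD31 and positive either for Integrin-a7 and CD34 or for a fluorescent reporter. Which of these gates was used for which group is not given in the sources used here, although Sirt6mKO mice carry a YFP reporter, and the part of the gate in the results was not tested. The 2 mdx libraries of the series, which carry the mdx mutation and no Sirt6 deletion, are set beside the comparison for the genes described. No library of Sirt6-deleted cells with intact dystrophin was analysed here.

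MuSCs lie quiescent between the muscle fibre and its basement membrane, and re-enter the cell cycle after injury to make new fibres. In mdx muscle, which lacks dystrophin, fibres are damaged and repaired over and over, so MuSCs live in a regenerating tissue. SIRT6 is an NAD-dependent histone deacetylase of the nucleus. The question of the comparison is which RNAs of dystrophic MuSCs with the Sirt6 deletion still differ from those of healthy MuSCs.

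Sirt6 was examined first. Its normalized read count (reads per gene, scaled for library depth) was 41 and 32 for control, 33 and 40 for mdx, and 37 and 30 for the third group (log2 fold change -0.12 from control to the third group, SE 0.50, adjusted p = 0.92 in limma). The values are per gene, so they do not check a deletion of exons 4 to 6, and the third group is named by its label, Sirt6mKO/mdx, alone. The sex of the libraries did not match between the groups. Xist, which in females coats and silences one X chromosome, stood at 16772 and 12950 in control against 33 and 34 in Sirt6mKO/mdx, and Ddx3y of the Y chromosome stood at 3 and 8 against 1555 and 1767. Genotype and sex thus cannot be told apart in any difference from control given here, and leaving out the X and Y chromosomes removes sex-linked genes but not autosomal genes that differ between the sexes. The libraries held between 4397632 and 9745218 approximate reads.

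Markers of the sorted cells were present. The summed value of 20 genes of MuSC identity was 63511 and 64330 in control and 54809 and 61204 in Sirt6mKO/mdx. Peg3, an imprinted gene of that list, was at 8175 and 8816 against 16321 and 19069 (log2 fold change 1.06, adjusted p = 0.14), and the other 19 genes summed to 55336 and 55514 against 38488 and 42135. Pax7, the transcription factor that defines MuSCs, was at 2754 and 2932 against 3236 and 2433. Myf5 and Myod1, which commit these cells to muscle, were not called either (log2 fold change 0.43, adjusted p = 0.46, and 0.00, adjusted p = 1.0). Of the 20 genes 3 were lower (Dag1, Sdc4 and Sdc3) and 0 higher, beside 2.72% lower and 5.1% higher among all tested genes, with 4 lower and 1 higher at an unadjusted p under 0.05. In a bulk sample, fewer cells of a type and less RNA per cell cannot be told apart.

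Of the 15382 genes, 1202 (7.81%) were called, which required a Benjamini-Hochberg adjusted p of at most 0.05 in limma and a change of at least 2-fold. In Sirt6mKO/mdx, 784 genes (5.1% of those tested) were higher and 418 (2.72%) were lower. The higher genes were also further from control. Their median log2 fold change was 1.99 against -1.35 for the lower genes, and 391 higher genes against 91 lower genes differed by at least 4-fold. All 1202 called genes had groups without overlap, which held for 51.5% of all tested genes (26.2% with Sirt6mKO/mdx above control and 25.2% below). At the unadjusted level, 3676 genes (23.9%) had a p under 0.05. The split between higher and lower depended on how the libraries were scaled. With every library scaled to the same summed value, which moved the median log2 fold change of all tested genes to -0.58, 428 genes were higher and 2602 lower. With the summed value of protein-coding genes made equal, a scaling chosen after the data were seen, 1078 were higher and 254 lower, and with log2 values centred by GC content 597 were higher and 574 lower. Without Sirt6mKO/mdx replicate 2 there were 153 higher and 44 lower calls, and without replicate 1 there were 237 and 102. Without Control replicate 2 there were 396 higher and 146 lower calls, while 120 higher and 27 lower genes were called in every fit that left out 1 of the 6 libraries.

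**Figure D1:**
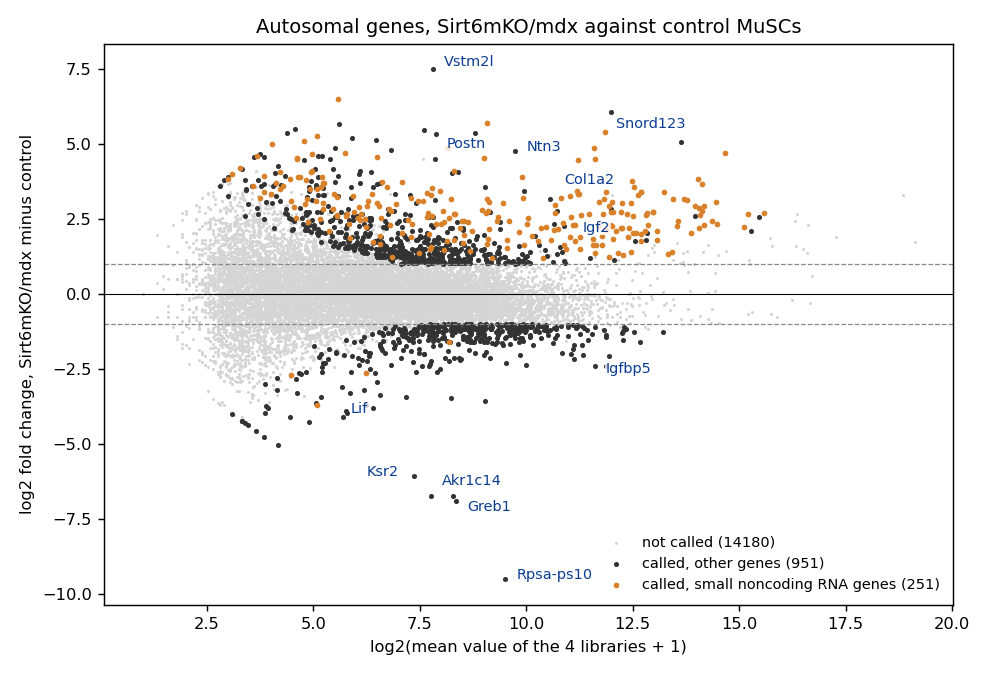
Each point is 1 of 15382 autosomal genes, with the log2 of its mean normalized read count over the 4 libraries compared (plus 1) on the x axis and its log2 fold change, Sirt6mKO/mdx minus control, on the y axis. Dashed lines mark a 2-fold change. Called small noncoding RNA genes (orange) lie mostly above 0, while other called genes (black) lie on both sides, from Vstm2l at 7.47 to Rpsa-ps10 at -9.51.

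By kind of RNA, small noncoding RNAs were called higher most often. Small nucleolar RNAs (snoRNAs) guide the chemical modification of ribosomal and spliceosomal RNA, and small nuclear RNAs (snRNAs) are the RNA core of the spliceosome. Of 255 snoRNA genes tested, 151 (59.2%) were higher and 0 were lower, beside 5.1% and 2.72% of all genes, with a median log2 fold change of 1.96. Of the 255, 227 had a positive log2 fold change, and at an unadjusted p under 0.05 187 were higher and 4 lower. With voom weights in limma 156 were higher and 0 lower. Of 190 snRNA genes, 58 were higher and 2 lower (median 2.25), and of 90 genes annotated as misc_RNA, which include the Y RNAs and telomerase RNA, 23 were higher and 0 lower (median 1.08). MicroRNA genes had 15 higher and 2 lower of 150 (median 0.42). Leaving out 1 library gave 17 to 82 higher snRNA genes, 2 to 23 higher misc_RNA genes and 1 to 17 higher microRNA genes. Copies of snRNA genes are nearly alike, so their counts are uncertain. Together 247 small noncoding RNA genes made 31.5% of the higher calls, whereas 385 of the 418 lower genes (92.1%) were protein-coding.

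The median of the snoRNAs stayed positive under 3 other scalings. It was 2.13 with the summed value of protein-coding genes made equal and 1.75 with values centred by GC content. With every library scaled to the same summed value, 129 were higher and 5 lower and their median was 1.36, where the median of all tested genes was -0.58. Leaving out 1 library gave between 75 (without Sirt6mKO/mdx replicate 2) and 147 higher snoRNAs and 0 lower. The named guides of both classes moved together. Of 45 genes with a Snord symbol (box C/D guides, which direct ribose methylation) 31 were higher, of 22 with a Snora symbol (box H/ACA guides, which direct pseudouridylation) 14 were higher, and all 9 with a Scarna symbol, whose products act in Cajal bodies, were higher. None of these genes was lower. Leaving out 1 library gave 18 to 30 higher Snord genes, 7 to 15 higher Snora genes and 5 to 9 higher Scarna genes. These symbol groups were formed after their values were seen.

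The 4 Snord genes and the Snora gene with the highest log2 fold change are shown as examples of both classes, as transcripts of GENCODE release M21 on GRCm38, 5′ to 3′. In the Snord sequences capitals mark the last D box (CTGA) and, where these exact letters occur, the first C box (TGATGA). In Snora36b they mark the ACA that starts 6 bases from the 3′ end.
Snord123 (chr15:32241853-32241923, minus strand): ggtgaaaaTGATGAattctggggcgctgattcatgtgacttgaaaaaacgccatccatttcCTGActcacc
Snord45b (chr3:153910563-153910633, minus strand): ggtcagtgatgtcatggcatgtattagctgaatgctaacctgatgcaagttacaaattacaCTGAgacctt
Snord93 (chr5:23852210-23852280, plus strand): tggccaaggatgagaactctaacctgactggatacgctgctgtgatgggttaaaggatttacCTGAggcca
Snord70 (chr1:59691934-59692020, plus strand): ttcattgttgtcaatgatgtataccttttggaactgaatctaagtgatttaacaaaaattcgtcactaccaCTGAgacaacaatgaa
Snora36b (chr1:185242907-185243038, plus strand): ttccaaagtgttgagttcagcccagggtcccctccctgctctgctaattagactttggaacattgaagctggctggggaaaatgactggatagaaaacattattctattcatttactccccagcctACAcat
On the transcript strand, a C box followed by a D box in these letters was present in 30 of the 45 tested Snord genes and in 23.4% of all 1459 snoRNA genes with a single transcript in the annotation. The terminal ACA was present in 18 of 21 tested Snora genes with a sequence and in 17.6% of the same 1459.

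Snord123, the highest of them, had normalized read counts of 127 and 227 for control, 1721 and 1972 for mdx, and 6037 and 8476 for Sirt6mKO/mdx. The 3 groups did not overlap and the Sirt6mKO/mdx libraries were the highest. Its log2 fold change against control was 5.39 (SE 0.30, adjusted p = 7.1e-08). Snora36b stood at 563 and 349 for control, 1607 and 710 for mdx, and 4440 and 4343 for Sirt6mKO/mdx (log2 fold change 3.31, SE 0.34, adjusted p = 3.6e-05). Scarna9 showed the same order, with 140 and 102, 630 and 592, and 1670 and 1923 (3.90, SE 0.25, adjusted p = 2.9e-07). Among other small RNAs the Y RNA gene Rny1 stood at 5776 and 2303 in control and 31592 and 23878 in Sirt6mKO/mdx (2.91, adjusted p = 0.0014), and Terc, the template RNA of telomerase, at 134 and 49 against 531 and 352 (2.40, adjusted p = 0.0038). Not every small RNA passed the test. Rn7sk, the RNA that holds the elongation factor P-TEFb inactive, had 93611 and 75143 for control against 593895 and 1116360 for Sirt6mKO/mdx. Its log2 fold change was 3.28 with an SE of 1.97 (adjusted p = 0.33 in limma). The groups did not overlap, and the SE is that of the fit, whose prior variance follows the mean. Snord123, Snora36b and Scarna9 were called whichever library was left out. Rny1 and Terc lost their calls without Sirt6mKO/mdx replicate 1 or 2 (adjusted p 0.051 to 0.11), and Terc also without Control replicate 2 (adjusted p = 0.064).

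Small RNAs took a larger share of the Sirt6mKO/mdx libraries. Tested genes of these classes made up 23.7% and 15.4% of the summed values for control, 25.8% and 18.5% for mdx, and 43.4% and 46.9% for Sirt6mKO/mdx. Tested protein-coding genes made up 61.4% and 76.4% in control and 38.4% and 41.2% in Sirt6mKO/mdx. The part of this shift in the differences of other genes was not tested. Of 225 protein-coding genes that hold a snoRNA gene within their span on the same strand, 5 were higher (2.22%) and 13 lower (5.78%), with a median log2 fold change of -0.21, beside 3.76% higher and 2.92% lower among all tested protein-coding genes. Short protein-coding genes were higher more often than long ones. Of the 2618 protein-coding genes with the shortest exonic length, 162 were higher and 28 lower, and of the 2617 with the longest, 73 were higher and 128 lower. By GC content in 5 equal bins, the lowest bin had 9.13% of its genes higher and 1.94% lower. Clustered histone genes, whose short mRNAs carry no poly(A) tail, had 18 of 57 higher and 0 lower (median 1.69), with between 2 and 24 higher when 1 library was left out. Hist1h2ab, which encodes a histone H2A, stood at 3 and 1 for control, 64 and 57 for mdx, and 63 and 168 for Sirt6mKO/mdx (log2 fold change 5.2, adjusted p = 0.00016).

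**Figure D2:**
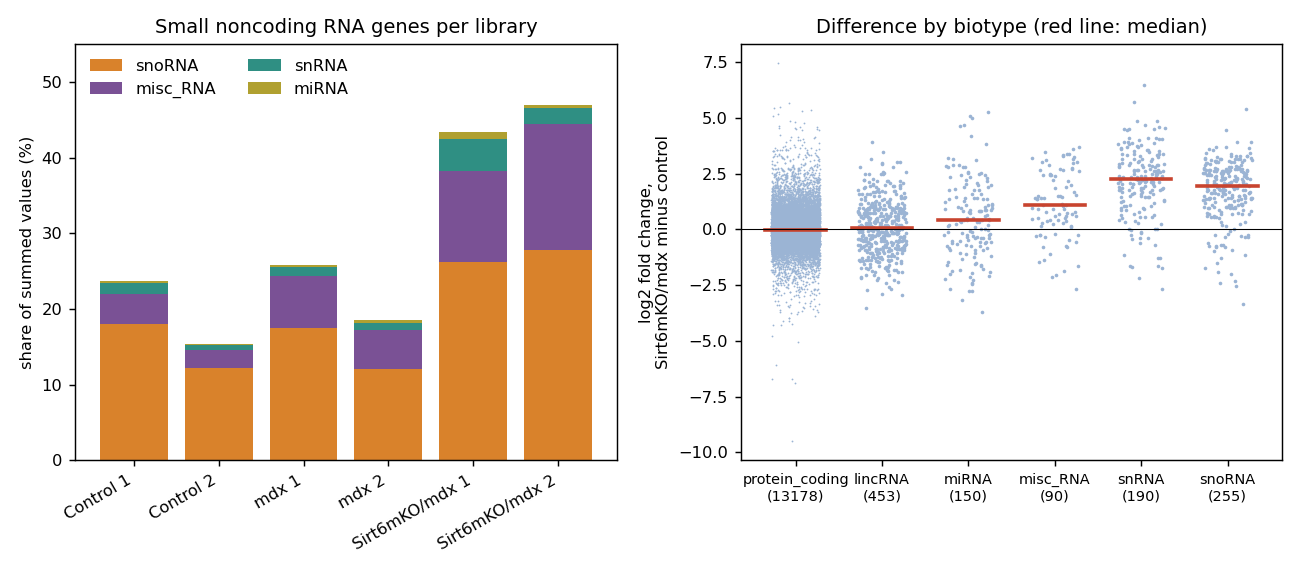
Left, the share of the summed normalized read counts (y axis, percent) taken by tested autosomal genes of 4 small RNA classes in each of the 6 libraries. Right, the log2 fold change, Sirt6mKO/mdx minus control, of every tested gene of 6 biotypes (number in brackets), with the median as a red line. Both Sirt6mKO/mdx bars are taller than the other 4, and the medians run from -0.02 for protein-coding genes to 2.25 for snRNA genes.

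Among the higher protein-coding genes named by rule, the widest gap between the groups was that of Vstm2l (chr2:157914653-157944719), an immunoglobulin-domain gene. It stood at 5 and 0 for control, 20 and 29 for mdx, and 549 and 343 for Sirt6mKO/mdx (log2 fold change 7.47, SE 0.73, adjusted p = 2.3e-05). Ntn3, a netrin of the family of secreted guidance cues, stood at 59 and 50, 96 and 194, and 2388 and 933 in the same order (4.76, SE 0.40, adjusted p = 4.8e-06). Slc41a2, a magnesium transporter, stood at 47 and 28, 112 and 155, and 749 and 521 (4.07, SE 0.34, adjusted p = 4.8e-06). For these 3 genes the mdx libraries lay above control and below Sirt6mKO/mdx, and each was called whichever library was left out. They were also higher in Sirt6mKO/mdx than in mdx, by 4.12, 3.44 and 2.24 on the log2 scale (adjusted p = 0.0029, 9.5e-05 and 0.00094), in a comparison that uses the same Sirt6mKO/mdx libraries and in which 8.16% of tested autosomal genes were called.

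Rae1, an mRNA export factor of the nuclear pore, rose from 163 and 171 in control to 2023 and 1592 in Sirt6mKO/mdx, with 337 and 585 in mdx (log2 fold change 3.42, SE 0.28, adjusted p = 4e-06). Vmp1, a membrane protein of the endoplasmic reticulum needed for autophagy, was at 382 and 477, 710 and 435, and 3481 and 2435 (2.77, SE 0.29, adjusted p = 3.6e-05). Ehmt2, the histone H3K9 methyltransferase G9a, was at 1085 and 835, 2206 and 4898, and 4680 and 9619 (2.82, SE 0.40, adjusted p = 0.00043). For Ehmt2 one mdx library lay above a Sirt6mKO/mdx library. Other higher genes with a wide gap were Adra2c, the alpha-2C adrenergic receptor (9 and 5 against 243 and 190), Mroh6 (33 and 35 against 599 and 544), Vsig8 (20 and 2 against 512 and 238), Cpz, a secreted carboxypeptidase (6 and 11 against 111 and 104), Srrm3, a splicing regulator (11 and 4 against 152 and 99), and 1700065D16Rik (11 and 1 against 173 and 164). Cpz lost its call without Sirt6mKO/mdx replicate 1 or 2 (adjusted p = 0.078 and 0.095) and 1700065D16Rik without replicate 2 (adjusted p = 0.051). At high abundance, Cds2, which makes a precursor of phosphatidylinositol, was at 1077 and 6020 against 7028 and 15105 (2.02, adjusted p = 0.047), and Tnrc6c, a partner of Argonaute proteins in microRNA silencing, was at 489 and 474 against 2096 and 1631 (1.94, adjusted p = 0.0037). Of the 6 fits that left out 1 library, Cds2 was called in that without Control replicate 2 and lost its call in the others (adjusted p 0.094 to 0.43), with a log2 fold change of 0.78 where Control replicate 1 was left out. Tnrc6c lost its call without Control replicate 2 (adjusted p = 0.052) or either Sirt6mKO/mdx library (0.10 and 0.076).

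The lowest log2 fold change was that of Rpsa-ps10, a copy of Rpsa, which encodes a protein of the small ribosomal subunit. It stood at 1381 and 1529 for control, 2118 and 638 for mdx, and 3 and 0 for Sirt6mKO/mdx (-9.51, SE 0.56, adjusted p = 1.3e-07). The copy shares its sequence with Rpsa, so how reads were split between them is uncertain. Rpsa itself was at 3699 and 3715 in control and 1752 and 1957 in Sirt6mKO/mdx (-1.0, adjusted p = 0.062), and the sum of both was 5080 and 5244 against 1755 and 1957. Rab6b, a GTPase of Golgi transport, was at 156 and 157 for control, 117 and 112 for mdx, and 15 and 7 for Sirt6mKO/mdx (-3.80, SE 0.44, adjusted p = 8.8e-05). By their own counts, Rpsa-ps10 and Rab6b were also lower in Sirt6mKO/mdx than in mdx, with log2 fold changes of -9.18 and -3.35 (adjusted p = 3.6e-07 and 0.00027). Both were called against control whichever library was left out.

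A second set of lower genes was as low in mdx. Ksr2, a scaffold of the RAF-MEK-ERK cascade, was at 231 and 415 for control, 5 and 11 for mdx, and 6 and 2 for Sirt6mKO/mdx (log2 fold change -6.08, SE 0.68, adjusted p = 6.1e-05). Akr1c14, an aldo-keto reductase that acts on steroids, was at 376 and 468, 12 and 5, and 15 and 0 (-6.72, SE 0.95, adjusted p = 0.00045). Lif, the cytokine leukaemia inhibitory factor, was at 154 and 189, 12 and 10, and 14 and 17 (-3.38, SE 0.52, adjusted p = 0.00093). In these 3 genes the mdx and Sirt6mKO/mdx libraries lay together and apart from control. Stox2 (295 and 331 in control, 54 and 58 in mdx, 63 and 54 in Sirt6mKO/mdx), Slco2a1, a prostaglandin transporter (73 and 137, 6 and 2, 14 and 6), Smoc1, a secreted calcium-binding matrix protein (122 and 137, 7 and 21, 19 and 9), and Trabd2b, a metalloprotease that cleaves Wnt proteins (32 and 165, 5 and 8, 5 and 2), were placed likewise. All mdx and Sirt6mKO/mdx libraries carried Y-linked transcripts and the control libraries carried Xist, so this pattern cannot be told apart from one of sex. Smoc1, Trabd2b and Slco2a1 lost their calls without Control replicate 2 (adjusted p 0.069 to 0.15) or Sirt6mKO/mdx replicate 2 (0.13 to 0.18), and the last 2 also without Sirt6mKO/mdx replicate 1 (0.055 and 0.061).

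**Figure D3:**
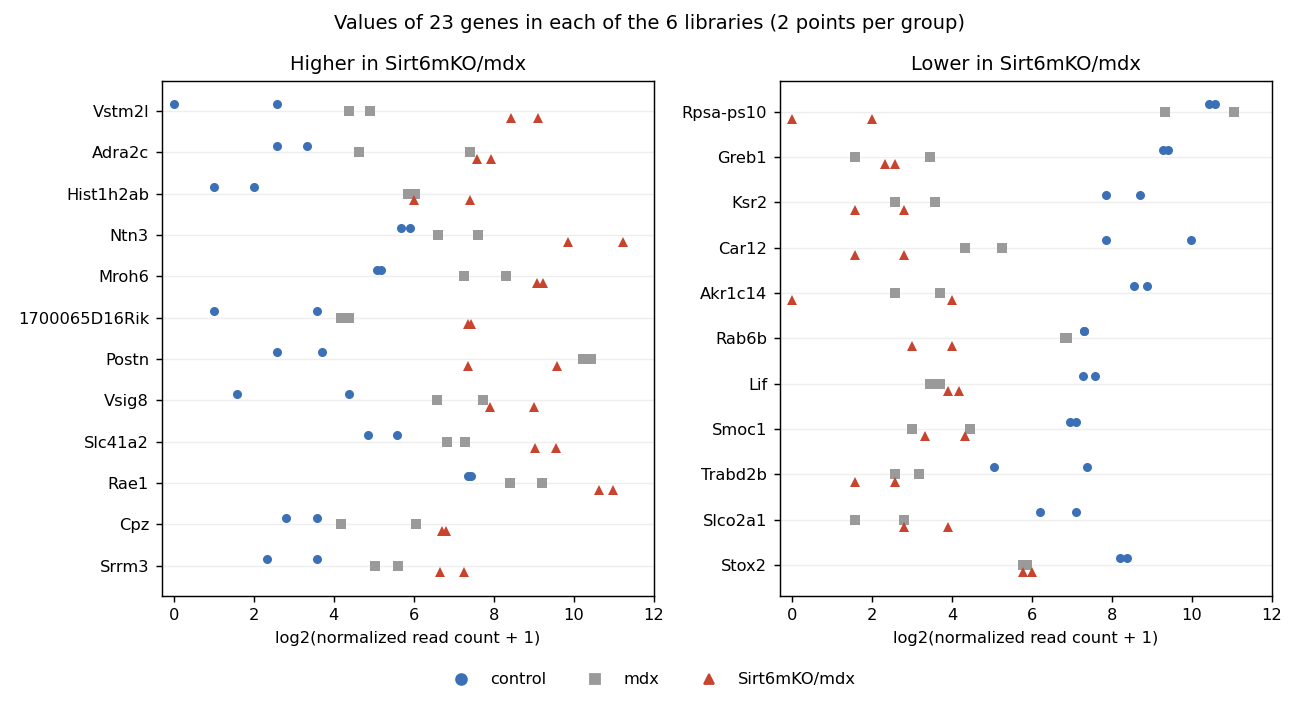
Each marker is the log2 of a gene's normalized read count (plus 1, x axis) in 1 library, for 12 higher and 11 lower protein-coding genes (y axis) with the widest gap between control (blue circles) and Sirt6mKO/mdx (red triangles) libraries. Grey squares are the mdx libraries, which lie near control for Rab6b (117 and 112 against 156 and 157) and near Sirt6mKO/mdx for Ksr2 (5 and 11 against 6 and 2).

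Part of the oestrogen-responsive genes were lower in Sirt6mKO/mdx. Oestrogen receptors are nuclear receptors that switch on genes such as Greb1 when bound to hormone. Of 16 tested genes of a list of receptors and targets, 6 were lower and 0 higher, beside 2.72% and 5.1% of all tested genes, with a median log2 fold change of -0.81. At an unadjusted p under 0.05, 9 were lower and 1 higher. Greb1 (chr12:16670615-16800886 in GRCm38), a cofactor and target of the receptor, was at 621 and 675 for control, 10 and 2 for mdx, and 5 and 4 for Sirt6mKO/mdx (-6.89, SE 0.65, adjusted p = 1.6e-05). Car12, a carbonic anhydrase, was at 230 and 1004, 37 and 19, and 2 and 6 (-6.72, SE 0.67, adjusted p = 2.7e-05). Esr1, the oestrogen receptor alpha itself, was at 1485 and 1376, 1020 and 1040, and 554 and 622 (-1.28, SE 0.24, adjusted p = 0.0035), with a smaller difference and with mdx between the other groups. Ccnd1, Nrip1 and Siah2 fell by 1.26, 1.17 and 1.05 on the log2 scale. Greb1 and Car12 were called whichever library was left out. Esr1 lost its call without Sirt6mKO/mdx replicate 1 or 2 (adjusted p = 0.078 and 0.064), as did Ccnd1, Nrip1 and Siah2 (0.080 to 0.24) and these 3 also without Control replicate 2 (0.096 to 0.27). Ccnd1 and Siah2 were also lost without either mdx library (0.051 to 0.068), and Siah2 without Control replicate 1 (0.13). Of 12 tested androgen-responsive genes 0 were called in limma with or without voom weights, and at an unadjusted p under 0.05 1 was higher and 3 lower (median -0.09).

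Genes of cholesterol synthesis had lower values in Sirt6mKO/mdx almost throughout. The pathway builds sterols from acetyl-CoA through HMG-CoA and squalene and is driven by SREBP2. Of its 22 tested genes 6 were lower and 0 higher, beside 2.72% and 5.1% of all genes, and 21 of 22 had a negative log2 fold change (median -0.82). The median stayed between -0.93 and -0.70 when a compared library was left out. At an unadjusted p under 0.05, 11 were lower and 0 higher. Lss, which closes the sterol rings, was at 125 and 170 for control, 115 and 242 for mdx, and 60 and 39 for Sirt6mKO/mdx (log2 fold change -1.57, adjusted p = 0.024). Stard4, a carrier of cholesterol, was at 210 and 248, 179 and 316, and 71 and 117 in the same order (-1.31, adjusted p = 0.027). For both genes the Sirt6mKO/mdx libraries lay below the other 4. Sqle, the squalene epoxidase, and Hsd17b7 fell by 1.09 and 1.12. Lss, Stard4, Sqle and Hsd17b7 lost their calls without Sirt6mKO/mdx replicate 2 (adjusted p 0.091 to 0.25), Control replicate 2 (0.14 to 0.16) or Sirt6mKO/mdx replicate 1 (0.085 to 0.25), and Stard4 and Sqle without Control replicate 1 (0.060 for both).

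Ribosomal protein genes and glycolysis genes were also lower in part. Of 56 tested cytosolic ribosomal protein genes 9 were lower and 0 higher, beside 2.72% and 5.1% of all tested genes (median -0.47), and at an unadjusted p under 0.05 21 were lower and 5 higher. Rpl28, of the large subunit, was at 1464 and 1459 for control, 629 and 386 for mdx, and 500 and 478 for Sirt6mKO/mdx (-1.58, SE 0.26, adjusted p = 0.0017). Rpl35 and Rpl18 fell by 1.68 and 1.54. Many of these genes have processed copies in the genome, which makes their counts uncertain. Of 24 tested glycolysis genes 3 were lower and 0 higher, beside the same shares of all genes, and at an unadjusted p under 0.05 8 were lower and 0 higher (median -0.44). Gapdh was at 1180 and 1158 in control and 515 and 491 in Sirt6mKO/mdx (-1.22, adjusted p = 0.0083), Hk1, the first kinase of the pathway, at 536 and 918 against 300 and 279 (-1.27, adjusted p = 0.015), and Pgam1 at 44 and 79 against 5 and 15 (-2.61, adjusted p = 0.019). Each of these genes lost its call without Sirt6mKO/mdx replicate 2 (adjusted p 0.055 to 0.19), all but Rpl28 also without replicate 1 (0.089 to 0.17), and Rpl35, Hk1 and Pgam1 without Control replicate 2 (0.078 to 0.16). Rpl35 was lost without Control replicate 1 too (0.082).

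Part of the subunits of the respiratory chain were higher on the deposited scale. Of 35 tested genes of oxidative phosphorylation 6 were higher and 0 lower, beside 5.1% and 2.72% of all genes, with a median of 0.39 that turned to -0.21 with every library scaled to the same summed value, where the median of all genes was -0.58. The higher genes were Cox6c, Ndufa2, Ndufa4, Cox7a2, Atp5j and Uqcrq. Cox6c, of cytochrome c oxidase, was at 183 and 218 for control, 530 and 469 for mdx, and 491 and 685 for Sirt6mKO/mdx (1.53, SE 0.26, adjusted p = 0.0019). Ndufa2, of complex I, was at 236 and 119, 333 and 253, and 495 and 413 (1.43, SE 0.32, adjusted p = 0.012). Of 31 proteasome genes 3 were higher (9.68%, beside 5.1% of all genes) and 0 lower, and 19 had a positive log2 fold change. The 3 were Psmc6, Psmb1 and Psma1, with log2 fold changes of 1.24, 1.09 and 1.06. The median of all 31 was 0.32 and turned to -0.29 with the summed value made equal. Under that scaling Cox6c, Ndufa2, Ndufa4, Cox7a2, Psmc6, Psmb1 and Psma1 were not called, with log2 fold changes of 0.46 to 0.93. Each of these genes lost its call without Sirt6mKO/mdx replicate 2 (adjusted p 0.066 to 0.21), all but Cox6c and Psmc6 also without replicate 1 (0.080 to 0.19), and all but Cox6c and Atp5j without Control replicate 2 (0.059 to 0.16). Psmb1 was lost without Control replicate 1 (0.050) and Cox7a2 without either mdx library (0.051). No length correction was made.

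**Figure D4:**
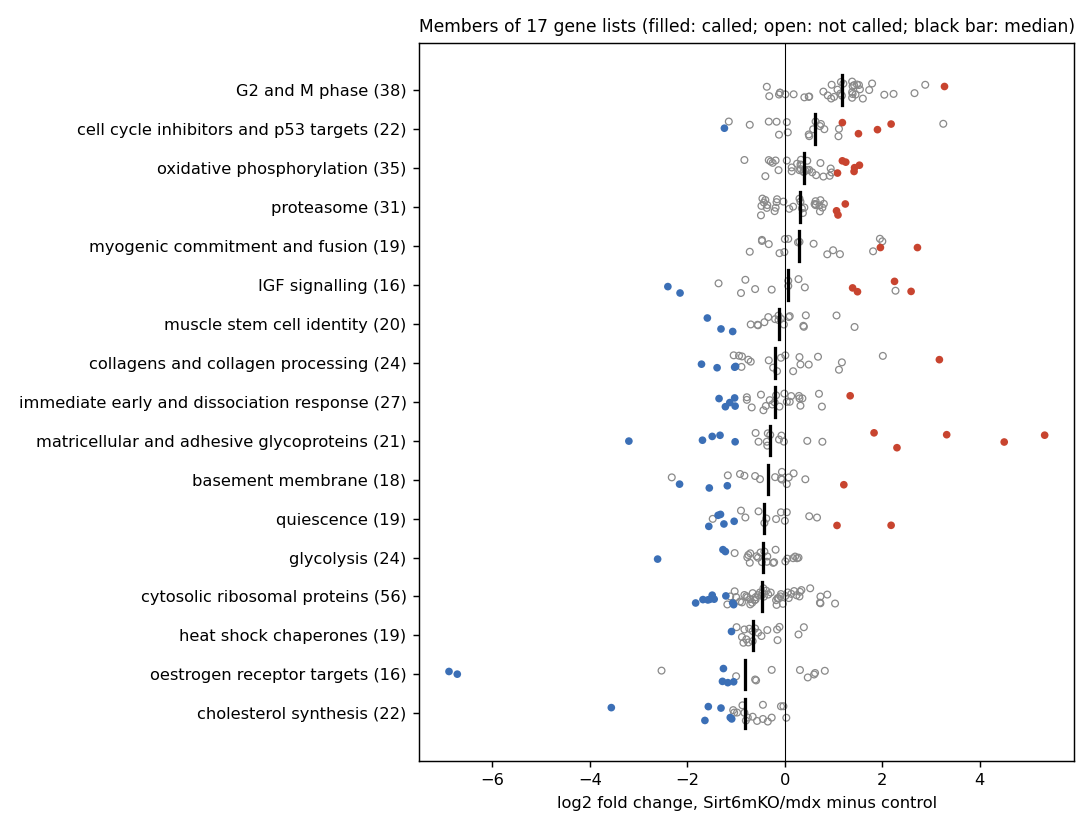
Log2 fold changes, Sirt6mKO/mdx minus control (x axis), of the tested members of 17 gene lists (y axis, number tested in brackets), ordered by their median (black bar). Filled points were called higher (red) or lower (blue) and open points were not called. Cholesterol synthesis has the lowest median (-0.82) with 6 lower and 0 higher genes, and G2 and M phase the highest (1.18) with 1 called gene.

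Proliferation genes mostly did not pass the test. Mki67, the Ki-67 antigen of cycling cells, was at 39 and 80 for control, 252 and 548 for mdx, and 99 and 162 for Sirt6mKO/mdx (log2 fold change 1.17, SE 0.42, adjusted p = 0.10). Top2a, the topoisomerase of dividing cells, was at 30 and 61, 229 and 369, and 71 and 128 (1.14, SE 0.42, adjusted p = 0.11). In both genes the Sirt6mKO/mdx libraries lay above control and below mdx. Of 38 tested genes of G2 and M phase 33 had a positive log2 fold change (median 1.18, and 0.63 with the summed value made equal), but 1 was called, Bub1 of the spindle checkpoint (3 and 1 against 14 and 48, adjusted p = 0.018), while at an unadjusted p under 0.05 15 were higher and 0 lower. Of 31 tested S phase genes 0 were called in limma with or without voom weights, and at an unadjusted p under 0.05 3 were higher and 0 lower (median 0.35, and -0.23 with the summed value made equal). Of 22 tested genes that hold the cell cycle back or are targets of p53, 4 were higher and 1 lower, beside 5.1% and 2.72% of all genes, and at an unadjusted p under 0.05 8 were higher and 3 lower. Cdkn1c, the CDK inhibitor p57, was at 57 and 180 for control, 1218 and 1072 for mdx, and 317 and 674 for Sirt6mKO/mdx (2.18, SE 0.43, adjusted p = 0.0061). Phlda3, a p53 target that inhibits AKT, was at 68 and 98 against 296 and 318 (1.90, adjusted p = 0.00098), and Cdkn2d, the CDK inhibitor p19, at 48 and 35 against 110 and 128 (1.51, adjusted p = 0.033). Trp53, which encodes p53, was at 452 and 679 against 207 and 266 (-1.24, adjusted p = 0.014). Bub1, Cdkn1c, Phlda3, Cdkn2d and Trp53 lost their calls without Sirt6mKO/mdx replicate 2 (adjusted p 0.052 to 0.26). Without Control replicate 2, Bub1, Cdkn2d and Trp53 were lost (0.090 to 0.14), and without Control replicate 1 Cdkn1c (0.054). Cdkn2d and Trp53 were lost without Sirt6mKO/mdx replicate 1 (0.16 for both), and Bub1 and Cdkn2d without either mdx library (0.053 to 0.059).

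Genes linked to quiescence were mostly lower where they were called. Of 19 tested, 5 were lower and 2 higher, beside 2.72% and 5.1% of all genes (median -0.42). Foxo1, a transcription factor of quiescence, was at 1192 and 1037 for control, 481 and 588 for mdx, and 449 and 439 for Sirt6mKO/mdx (-1.32, SE 0.24, adjusted p = 0.0031). Notch3 was at 7831 and 6184, 4041 and 5382, and 3049 and 2789 (-1.25, adjusted p = 0.025), and the Notch target Heyl at 2530 and 3393 against 1563 and 1303 (-1.04, adjusted p = 0.030). Hes1, another Notch target, was at 298 and 449 in control and 692 and 853 in Sirt6mKO/mdx (1.07, adjusted p = 0.027), and its relative Hes6 was at 86 and 45 against 231 and 220 (1.84, adjusted p = 0.0056). Hes1 was not called with the summed value of the libraries made equal. Heyl was not called with the summed value of protein-coding genes made equal. Of the genes of commitment and fusion, 2 of 19 were higher and 0 lower. Myog, which drives differentiation, was at 124 and 281 for control, 945 and 920 for mdx, and 432 and 1232 for Sirt6mKO/mdx (1.96, SE 0.42, adjusted p = 0.0097), and Tnnt2 at 2 and 19 against 31 and 80 (2.72, adjusted p = 0.034). All the called genes of these lists named here lost their calls without Sirt6mKO/mdx replicate 2 (adjusted p 0.080 to 0.37), and all but Myog without replicate 1 (0.055 to 0.17). Without Control replicate 1, Hes1, Myog, Notch3 and Tnnt2 were lost (0.089 to 0.18), and without Control replicate 2 Hes6, Heyl and Notch3 (0.051 to 0.16). Tnnt2 was also lost without either mdx library (0.090 and 0.093).

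Surface and matrix genes of the MuSC niche were called in both directions. Of 18 tested basement membrane genes 1 was higher and 3 lower, and of 22 integrins and syndecans 0 were higher and 2 lower. Among all tested genes 5.1% were higher and 2.72% lower. Dag1 (chr9:108205955-108263924 in GRCm38), which encodes dystroglycan, the laminin receptor that binds dystrophin, was at 8736 and 10961 for control, 10404 and 10977 for mdx, and 3631 and 2908 for Sirt6mKO/mdx (-1.59, SE 0.36, adjusted p = 0.014). It was the 1 called gene of 14 of the dystrophin-associated complex, a share near the 7.81% of all genes. The laminin chain Lama2, which dystroglycan binds, was placed likewise, with 6799 and 7643, 6856 and 7166, and 3191 and 3174 (-1.18, SE 0.32, adjusted p = 0.034). Lamc1 was at 6813 and 7972, 3921 and 4730, and 2832 and 2232 (-1.55, adjusted p = 0.0069), and Lama3 at 622 and 533, 111 and 75, and 141 and 117 (-2.16, adjusted p = 0.00034). Lama5 was higher, with 517 and 350 against 969 and 1003 (1.21, adjusted p = 0.018). It was not called with the summed value of the libraries made equal or with values centred by GC content. Syndecan-4 (Sdc4) was at 7692 and 6224, 1100 and 1049, and 2753 and 2822 (-1.31, adjusted p = 0.0087), and Sdc3 fell by 1.07. Lama2 and Sdc3 were not called with the summed value of protein-coding genes made equal. Lama3 was called whichever library was left out. The other called genes named here lost their calls without Sirt6mKO/mdx replicate 1 (adjusted p 0.078 to 0.23) or replicate 2 (0.14 to 0.27), and Dag1, Lama2, Lamc1, Lama5 and Sdc3 without Control replicate 2 (0.051 to 0.19). Lama2 was also lost without Control replicate 1 (0.059) and Sdc3 without either mdx library (0.060 and 0.062). Utrn, which encodes the dystrophin relative utrophin, was at 2778 and 3059 in control and 2826 and 2428 in Sirt6mKO/mdx (-0.15, adjusted p = 0.79).

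Of 21 matricellular and adhesive glycoproteins, 5 were higher and 5 lower, beside 5.1% and 2.72% of all tested genes. Postn, which encodes periostin, a matrix protein of injured and growing tissue, was at 5 and 12 for control, 1384 and 1204 for mdx, and 164 and 760 for Sirt6mKO/mdx (log2 fold change 5.33, SE 0.53, adjusted p = 2.7e-05). The Sirt6mKO/mdx libraries differed from each other by more than either other pair, and both lay above control and below mdx. Spp1, which encodes osteopontin, was at 9 and 43, 162 and 129, and 164 and 266 (3.32, adjusted p = 0.0014), Wisp2 at 6 and 52 against 433 and 434 (4.50, adjusted p = 0.00074), and Tnc, tenascin-C, at 48 and 140 against 192 and 449 (1.83, adjusted p = 0.020). Lower were Fbn1, the fibrillin of microfibrils, at 3009 and 4794 against 1487 and 933 (-1.69, adjusted p = 0.0035), Thbs2 and Thbs1 (thrombospondins), which fell by 1.49 and 1.33, Ctgf, which fell by 1.02, and Smoc1. Col1a2 was at 196 and 416 for control, 4730 and 6265 for mdx, and 1885 and 3535 for Sirt6mKO/mdx (3.17, SE 0.36, adjusted p = 7.6e-05). Its partner chain Col1a1 was not called, with 634 and 862 against 1136 and 747 (0.32, adjusted p = 0.52). Of 24 collagen genes and their enzymes 1 was higher (Col1a2) and 4 were lower, Col15a1 (-1.71), P4ha1 (-1.39), Col12a1 (-1.03) and P4ha2. Tnxb and Ltbp4, further matrix genes of high abundance, were at 3468 and 2419 against 737 and 728 (-1.98, adjusted p = 0.00024) and at 3764 and 3517 against 944 and 694 (-2.17, adjusted p = 0.00013). Postn, Col1a2, Tnxb and Ltbp4 were called whichever library was left out. Thbs2 lost its call without Sirt6mKO/mdx replicate 1 (adjusted p = 0.086), and the other called matrix genes named here lost theirs without Sirt6mKO/mdx replicate 2 (0.062 to 0.32). Also lost were Thbs1, Ctgf, P4ha1, Col12a1 and P4ha2 without Sirt6mKO/mdx replicate 1 (0.065 to 0.19), Fbn1, Thbs1, Ctgf, Smoc1 and P4ha2 without Control replicate 2 (0.053 to 0.26), Tnc, Ctgf and Col12a1 without Control replicate 1 (0.061 to 0.16), and Tnc and Thbs1 without either mdx library (0.054 to 0.072).

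Of 16 tested genes of insulin-like growth factor (IGF) signalling 4 were higher and 2 lower, beside 5.1% and 2.72% of all tested genes, and 2 were higher and 2 lower with voom weights. IGFs promote the growth of muscle and are held by binding proteins. Igf2 was at 621 and 686 for control, 7301 and 4419 for mdx, and 2637 and 3679 for Sirt6mKO/mdx (log2 fold change 2.25, SE 0.31, adjusted p = 0.00031), and H19, the imprinted RNA next to it, at 826 and 1211, 3875 and 2422, and 2352 and 2941 (1.39, adjusted p = 0.011). Igfbp5 (chr1:72857932-72874884 in GRCm38), an IGF-binding protein, was at 4444 and 6063, 4490 and 4270, and 777 and 1242 (-2.40, SE 0.31, adjusted p = 0.00021). Igf1 was at 243 and 819, 623 and 253, and 118 and 84 (-2.15, adjusted p = 0.012). Igf2 and H19 were thus above control in both dystrophic groups, while Igfbp5 and Igf1 were lower in Sirt6mKO/mdx than in the other groups. Igfbp6 and Igfbp3 rose by 2.59 and 1.49. Bmp6, a bone morphogenetic protein, was at 665 and 557, 487 and 874, and 2256 and 1586 (1.63, SE 0.30, adjusted p = 0.0032). Wnt4 was at 121 and 150 against 31 and 17 (-2.50, adjusted p = 0.0042). Igf2 and Igfbp5 were called whichever library was left out. H19, Igf1, Igfbp6, Igfbp3 and Wnt4 lost their calls without Sirt6mKO/mdx replicate 2 (adjusted p 0.051 to 0.38), H19, Igf1, Igfbp6, Igfbp3 and Bmp6 without replicate 1 (0.085 to 0.24), Igf1, Igfbp6 and Wnt4 without Control replicate 2 (0.058 to 0.16), and H19 and Igfbp3 without Control replicate 1 (0.079 and 0.28). Igfbp3 was also lost without either mdx library (0.10 for both).

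Some stress-response genes were lower. Of 27 tested immediate early genes, which also respond to cell isolation, 5 were lower and 1 higher, beside 2.72% and 5.1% of all genes (median -0.21). Atf3, a stress-induced transcription factor, was at 3264 and 5358 for control, 77 and 121 for mdx, and 1391 and 1925 for Sirt6mKO/mdx (-1.35, SE 0.30, adjusted p = 0.013). Fosl2 of the AP-1 family was at 5677 and 4539, 431 and 455, and 2365 and 2003 (-1.22, adjusted p = 0.0090), and Csrnp1 at 3859 and 3294, 53 and 68, and 1679 and 1577 (-1.13, adjusted p = 0.010). In these 3 genes the Sirt6mKO/mdx libraries lay below control and above mdx. Fos, Jun and Egr1 were not called, with log2 fold changes of -0.39, -0.18 and 0.10. Of 19 heat shock chaperones 1 was lower, beside 2.72% of all genes, Hspd1 (3630 and 4924, 670 and 737, 1961 and 1962, log2 fold change -1.11, adjusted p = 0.017), and 2 had a positive log2 fold change (median -0.66). Ubb, a ubiquitin gene that is induced by stress, was at 3156 and 5134 against 994 and 976 (-2.03, adjusted p = 0.00079). Slc5a3, a transporter of myo-inositol induced by osmotic stress, was at 7458 and 5213, 427 and 534, and 1504 and 1474 (-2.07, adjusted p = 0.00024). Of 15 NF-kB genes 2 were lower, Birc3 (-1.96, adjusted p = 0.0016) and Tnfaip3 (-1.62, adjusted p = 0.0063). Csrnp1 and Hspd1 were not called with the summed value of protein-coding genes made equal. Slc5a3 was called whichever library was left out. The other called genes named here lost their calls without Sirt6mKO/mdx replicate 2 (adjusted p 0.053 to 0.18), all but Ubb and Birc3 without replicate 1 (0.073 to 0.18), Atf3 and Hspd1 without Control replicate 2 (0.13 and 0.11) and Tnfaip3 without Control replicate 1 (0.051).

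Markers of other cell types were mostly not called. Lyz2, Eng and Tagln lost their calls without either Sirt6mKO/mdx library (adjusted p 0.066 to 0.28). Among all tested genes 5.1% were higher and 2.72% lower. Of 13 tested macrophage and monocyte genes 1 was higher (0 with voom weights), Lyz2, a lysozyme, at 0 and 14 in control and 39 and 67 in Sirt6mKO/mdx (adjusted p = 0.027). Of the 13, 4 were higher and 0 lower at an unadjusted p under 0.05. Their median log2 fold change over all 13 was 1.08, and 0.5 with the summed value made equal. The summed value of the list was 174 and 210 in control and 315 and 307 in Sirt6mKO/mdx, and Ptprc, which encodes CD45, was at 0 and 0 against 3 and 19. Tenocyte genes summed to 1000 and 1209 against 933 and 1098, most of it Egr2, also an immediate early gene, and to 156 and 201 against 241 and 180 without it. Of the 7 genes 1 was higher, Scx, which lost its call without either Sirt6mKO/mdx library (adjusted p = 0.12 and 0.19) or Control replicate 2 (0.050). Endothelial genes summed to 1102 and 1135 against 735 and 778 with 1 lower gene of 11 (Eng), smooth muscle and pericyte genes to 2398 and 3309 against 2110 and 2663 with 1 lower of 11 (Tagln), and fibro-adipogenic genes to 12781 and 13093 against 11030 and 9439 with 0 of 16 called in limma with or without voom weights and 3 higher at an unadjusted p under 0.05. Of these 16 genes 9 had a positive log2 fold change, with a median of 0.41 that turned to -0.19 with the summed value made equal. The sum was dominated by Gsn (8423 and 8221 against 5567 and 5250) and was 4358 and 4872 against 5463 and 4189 without it, while Ly6a, which encodes the sorted-out antigen Sca1, was at 3 and 9 against 65 and 15 (adjusted p = 0.094) and Mfap5 at 6 and 10 against 68 and 22 (adjusted p = 0.11). The 22 myofibre genes summed to 26866 and 50751 against 45393 and 31797, with 0 called in either and 0 at an unadjusted p under 0.05. Alb, the liver plasma protein albumin, was at 23 and 3 in control and 390 and 24 in Sirt6mKO/mdx (adjusted p = 0.088), so that 1 library of that group stood apart. The part of these markers in the results above was not tested.

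**Figure D5:**
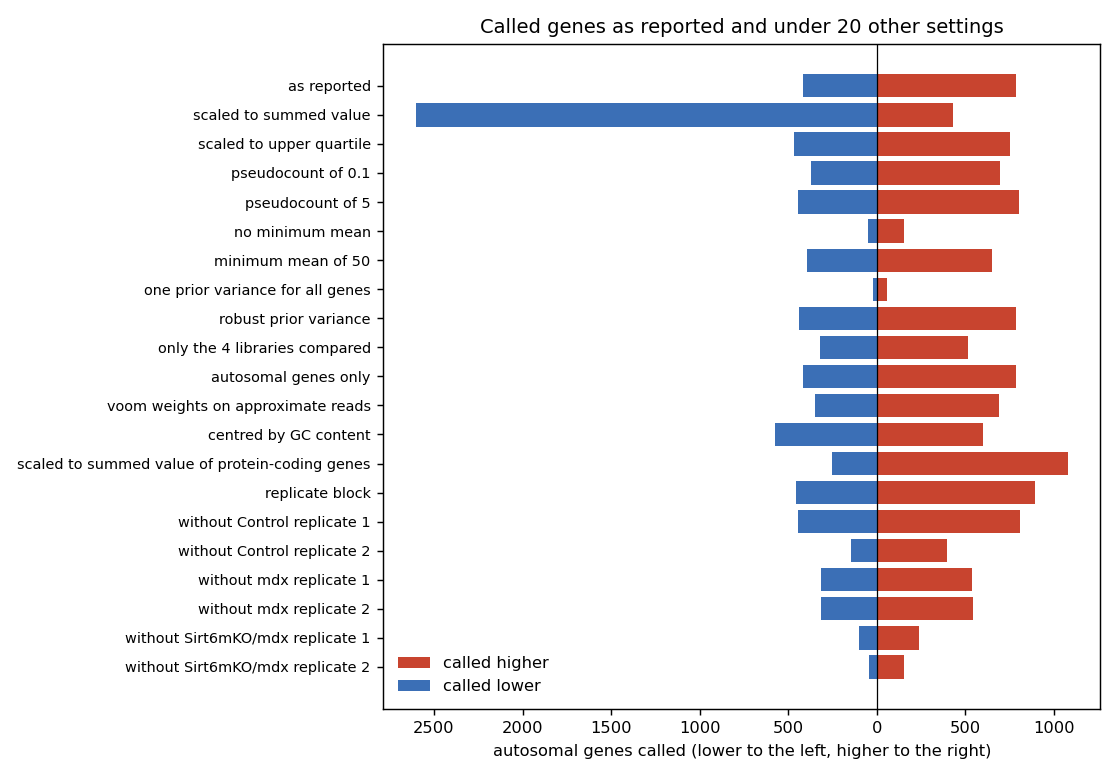
Number of autosomal genes called higher (red, right) and lower (blue, left) in Sirt6mKO/mdx than in control (x axis) as reported and under 20 other settings (y axis). The reported 784 and 418 shrink to 153 and 44 without Sirt6mKO/mdx replicate 2, and scaling to the same summed value gives 2602 lower genes.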

How the data were processed

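MuSC RNA was depleted of ribosomal RNA and read on an Ion Torrent sequencer. The authors used Reaper for trimming, STAR for alignment to GRCm38, featureCounts for counts of unique exonic reads per gene, and DESeq2. The submitters' processing notes give STAR 2.4.2a, featureCounts 1.4.5-p1 and DESeq2 1.6.0, and the study's methods give other versions of STAR and DESeq2. Whether strand was used is not given, which leaves antisense and overlapping genes uncertain. The deposited values are a score, namely read counts divided by 1 size factor per library and rounded, which count models cannot take. The factors (0.537 to 1.53) were estimated from how often each whole number occurs, so the approximate reads are estimates too.

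All 6 libraries entered a limma fit (version 3.58.1, R 4.3.3) of log2(value + 1), with an trend in the prior variance and no block. The test was two-sided and adjusted (Benjamini-Hochberg) over 15915 genes of all chromosomes with a mean value of at least 5. A fold change on this scale understates that of low genes. The fit was tested on simulated data. The methods name 2 biological replicates per group (n = 2 throughout). The p-values rest on the spread between these libraries, moderated by a prior variance from genes of like mean (12.06 prior degrees of freedom). Called means an adjusted p of at most 0.05 and at least 2-fold. Lists received no test. Named were the 12 genes per direction with the widest gap (mean of at least 50), up to 4 called members per list and 10 fixed genes. Further named were, per direction, the 8 called protein-coding genes of most extreme log2 fold change with a mean of at least 1000. Noncoding genes were named likewise, 5 per direction with a mean of at least 50. Small RNAs, host genes and other genes were chosen after their values were seen. Members and lists were chosen with earlier results of these data known. Pairing by replicate number was not established, since deviations from group means correlated at 0.119, 0.009 and -0.128. Some genes that these rules name are not reported here.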

Additional observations from a re-analysis of the deposited data

Results flagged for a closer look

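The 8 Y-linked genes of the table lie outside the autosomal comparison, and of them only Ddx3y is given above, as a check of sex. They summed to a normalized read count of 2912 and 3454 in the Sirt6mKO/mdx libraries and to 37 and 149 in the control libraries. The mdx libraries stood at 2541 and 2372. They are given because the signal lies far above that of the controls in genes left out of the comparison.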

How the results depend on the processing

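Against 784 higher and 418 lower genes as reported, the counts were 428 and 2602 with the summed value of the libraries made equal, 155 and 51 without a minimum mean, 59 and 20 with 1 prior variance for all genes, and 512 and 321 with the 4 compared libraries alone. With the summed value of protein-coding genes made equal, added after the data were seen, they were 1078 and 254. Leaving out 1 library gave 153 to 806 higher and 44 to 446 lower genes. With the replicate number as a block, although the pairing was not established, 890 were higher and 457 lower. Other pseudocounts (0.1 and 5), upper-quartile scaling, a robust prior variance, a minimum mean of 50, autosomal genes alone, voom weights and centring by GC content kept both counts within 1.5 times of those reported. The causes were not tested, except that fewer libraries enter the fits that leave some out. Of 130 called genes named by rule, none changed sign under any of the 20 alternatives, 15 stayed called in all where they were tested, and 114 lost the call with 1 prior variance. Genes of low counts were rarely called: 0.94% of those with a mean of 5 to 10 against 24.7% of those at 1000 or more (17.1% higher and 7.52% lower). The part of having 2 libraries per group in this was not tested.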

Other observations

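MicroRNA genes, measured as precursor loci and not mature forms, had 15 higher and 2 lower calls of 150, beside 5.1% and 2.72% of all tested genes, and 11 higher and 0 lower with voom weights. Mir31 was listed at 0 in both control libraries and stood at 11 and 10 in mdx and 19 and 9 in Sirt6mKO/mdx. Mir27b stood at 218 and 87 in control and 427 and 341 in Sirt6mKO/mdx (adjusted p = 0.027), and Mir340 at 91 and 207 against 438 and 518 (adjusted p = 0.0056). Lower were Mir494, of the imprinted Dlk1-Dio3 region, at 85 and 40 for control, 3 and 7 for mdx, and 2 and 6 for Sirt6mKO/mdx (adjusted p = 0.014), and Mirlet7a-2 at 33 and 42, 26 and 12, and 6 and 4 (adjusted p = 0.030). These genes were chosen after their values were seen. Without Sirt6mKO/mdx replicate 1 or 2 each lost its call (adjusted p 0.069 to 0.23). Mir494 and Mirlet7a-2 also lost theirs without either Control library (0.054 to 0.15) and Mir31 and Mir27b without Control replicate 2 (0.076 and 0.22). Mir31, Mir27b and Mirlet7a-2 lost theirs without mdx replicate 1 (0.054 to 0.076), and Mir31 and Mir27b without mdx replicate 2 (0.070 and 0.054).

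Of 21 YAP and TAZ genes 3 were higher and 2 lower, beside 5.1% and 2.72% of all tested genes. Ankrd1, a target of these coactivators, was at 82 and 477 for control, 301 and 211 for mdx, and 935 and 1188 for Sirt6mKO/mdx (log2 fold change 2.40, adjusted p = 0.012), and Axl, a receptor kinase, at 597 and 451 against 1156 and 994 (1.05, adjusted p = 0.017). The same background holds for the next lists. Of 23 HOX genes 2 were higher, Hoxb2 and Hoxa9, and 1 with voom weights, and Hoxa9 lost its call whichever library was left out (adjusted p 0.057 to 0.22). Of 27 antioxidant genes 3 were higher, among them Gpx8, a peroxidase of the endoplasmic reticulum (134 and 130 against 323 and 458, adjusted p = 0.0022), and 2 lower, among them Gstm1, a glutathione transferase (1051 and 1200 against 381 and 503, adjusted p = 0.0031). In limma, with or without voom weights, 0 of 28 interferon-stimulated genes were called (7 higher and 2 lower at an unadjusted p under 0.05, median 0.32) and 0 of 16 genes of MHC class I presentation (1 higher and 4 lower, median -0.23). Ankrd1, Axl, Hoxb2 and Gpx8 lost their calls without Sirt6mKO/mdx replicate 2 (adjusted p 0.094 to 0.24), and Ankrd1, Axl, Hoxb2 and Gstm1 without replicate 1 (0.083 to 0.18). Axl was also lost without Control replicate 2 (0.12), and Hoxb2 without Control replicate 1 (0.11) or either mdx library (0.065 and 0.070).

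Called genes, 7.81% of all tested autosomal genes, were spread over the autosomes. The share ran from 5.75% of tested genes on chromosome 7 to 11.1% on chromosome 1. There 76 were higher (8.21%) and 27 lower (2.92%), beside 5.1% and 2.72% of all tested genes.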
